A study of Mus musculus with 12 samples.

Results

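Cells of the Y428F line were compared with wild-type (WT) W-20 cells after both had been exposed to 50 nM parathyroid hormone (PTH) for 2 h. The comparison comprised 6 of the 12 RNA-Seq libraries of the study, 3 from WT cells and 3 from Y428F cells, and the libraries were assigned to groups by their titles alone. W-20 is a murine bone marrow stromal cell (BMSC) line, and all of the cells were grown in serum-containing medium. The other 6 libraries, from the same lines with vehicle (PBS), were used to show which line differences were also present without PTH. The titles name the mutant libraries Y428F, whereas their genotype characteristic reads WT. The study describes a stable line made with a plasmid for Flag-tagged YAP in which tyrosine Y428 was changed to phenylalanine, with positive clones selected by puromycin. It also describes a double mutant with a further serine substitution, and its text names that double mutant as the cells whose RNA-Seq response to PTH was compared, whereas the titles name Y428F alone. No library from cells with an introduced unmutated YAP was analysed here, so the mutation cannot be told apart from any other difference between the lines, such as the plasmid, the selection or the clone.

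PTH acts through a G protein-coupled receptor, PTH1R, which raises cAMP and also activates phospholipase C, and in bone it steers stromal cells toward osteoblasts and away from adipocytes. YAP is a transcriptional coactivator that binds DNA through TEAD factors. The Hippo kinases LATS1 and LATS2 phosphorylate YAP on serines, which keeps it out of the nucleus and marks it for degradation, whereas Src family kinases can phosphorylate it on tyrosines. In mesenchymal cells YAP is known for its part in the response to adhesion and tension, in growth, and in matrix and cytoskeletal gene expression.

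Expression is given as CPM, the count scaled for library size, and values of a group are listed for libraries 1, 2 and 3 or as mean ± SD (n = 3). Library totals were 17127897 to 17750085 counts for WT cells under PTH and 17731876 to 18064022 counts for Y428F cells under PTH, and those with vehicle were 17513924 to 19018693 and 17670681 to 19057319 counts. A gene was called when its log2 fold change lay beyond 0.3 in edgeR's quasi-likelihood test and its Benjamini-Hochberg adjusted p was below 0.01, and positive values mean higher expression in Y428F cells. Nothing in the labels says that the libraries of a group came from separate cultures, so the p-values measure the spread between these samples, which may be technical. The libraries are from bulk RNA, so fewer cells expressing a gene cannot be told apart from less RNA per cell.

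Markers fixed for BMSCs were present in both lines, although 10 of the 14 that were tested were lower in Y428F cells and 2, *Ly6a* and *Lepr*, were higher (17.3% and 16.5% of all genes tested). *Lepr* had 3, 1 and 2 counts in WT and 12, 13 and 9 counts in Y428F libraries, and under 9 alternatives 1 marker was higher in place of 2. *Thy1* and *Nt5e*, of the same list of 16, had 0 counts in each of the 6 libraries. The summed level of the stromal list was 29004, 29914 and 26463 CPM in WT libraries and 16119, 19082 and 18175 CPM in Y428F libraries, with *Col1a2* taking the most CPM in each. The third WT library under PTH stood apart from the first 2 on the second principal component (score -16.0, against 5.43 and 9.73), which held 5.36% of the variance, and it was lower than both for 24 of the 25 interferon-stimulated genes described below. The first Y428F library stood apart from the other two on the same component (score -9.46, against 9.43 and 0.90). The lines were separated on the first component (84.8% of the variance), with scores of -39.9 to -36.7 for WT and 37.5 to 40.1 for Y428F cells. The share of counts from mitochondrial genes was 0.855%, 0.815% and 0.997% in WT and 0.703%, 0.718% and 0.746% in Y428F libraries, so that the lines did not overlap. The part of this in the differences below was not tested.

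*Yap1* (ENSMUSG00000053110.14, chr9:7932000-8004661 on GRCm39), the gene that encodes YAP, was 245, 246 and 230.4 CPM in WT libraries and 171, 169 and 174 CPM in Y428F libraries. Every Y428F library was below every WT library (log2 fold change -0.48, standard error 0.056, adjusted p = 7.74e-06). With vehicle the line difference was -0.36 on the log2 scale, and the difference between treatments was not past the limit (adjusted p = 0.811). Counts per gene do not tell reads of an introduced YAP from those of the endogenous gene. *Wwtr1*, which encodes the YAP paralog TAZ, was 218 ± 6.32 CPM in WT against 184 ± 3.64 CPM in Y428F cells, a difference that passed the p limit but not the limit of 0.3 on the log2 scale (log2 fold change -0.24, adjusted p = 0.00278). The kinase gene *Src* was 107, 105 and 96.7 CPM in WT and 98.7, 112 and 104 CPM in Y428F libraries, which overlapped (log2 fold change 0.032, adjusted p = 0.718). The receptor gene *Pth1r* had only 8, 1 and 2 counts in WT and 4, 10 and 7 counts in Y428F libraries, so a difference was not detectable at this depth (log2 fold change 0.82, standard error 0.76, adjusted p = 0.398).

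Under PTH, 5380 of 15913 genes were called, which is 33.8% of those tested. Of these, 2631 (16.5% of the genes tested) were higher in Y428F cells and 2749 (17.3%) were lower. The median size of a called difference was 0.67 on the log2 scale in either direction, and 805 genes (5.06%) were higher and 829 (5.21%) lower by more than 1 on that scale. Beyond 4 on the log2 scale there were 194 genes higher and 121 lower. The libraries of the lines did not overlap for 8935 genes (56.1%). Without the third WT library 2520 genes were higher and 2679 were lower, and without the first Y428F library 2290 and 2616. Over all tested genes the median log2 fold change was 0.023. Among the 10375 genes with a mean of 4 CPM or more, 43.8% were called, 20.9% higher and 22.9% lower. Shares of the lists below are set against all genes tested, of which those with few counts were called less often.

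**Figure D1:**
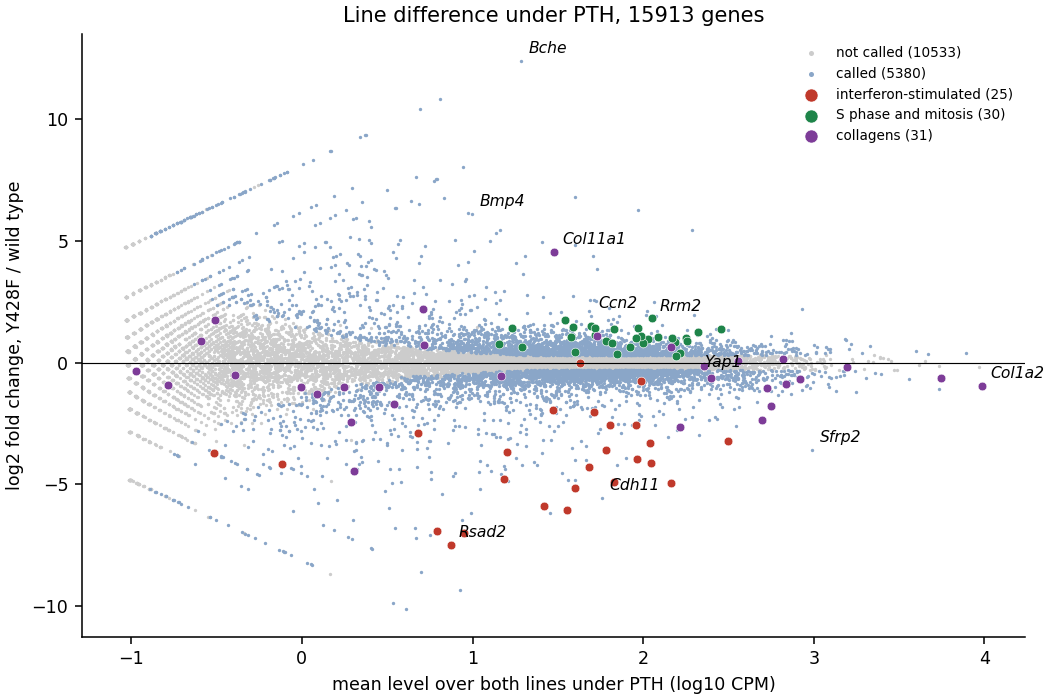
Log2 fold change between the lines under PTH (vertical axis, Y428F over wild type) against the mean level of both lines (horizontal axis, log10 CPM), 1 point per gene. The 24 called interferon-stimulated genes (red) lie below 0, the 29 called S phase and mitosis genes (green) above 0, and the 31 collagens (purple) on both sides, and straight rows of points at the left are genes with few counts.

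Most of the line difference was also present in the vehicle libraries, which share no library with those under PTH. With vehicle, 5501 of 16167 genes were called (34%). Of the 2622 genes that were higher under PTH and were also tested with vehicle, 2606 had the same direction there, 2183 were called in it and 1 was called in the opposite one. Of the 2747 lower ones, 2719 had the same direction, 2279 were called in it and 2 were called in the opposite one. The difference between the 2 line differences was itself past both limits for 22 of 17691 genes (0.124%), with the PTH value above the vehicle value for 6 (0.0339%) and below it for 16 (0.0904%). This count was 12 to 14 without WT library 1 or 2 under PTH (14 each), Y428F library 3 under PTH (12), or Y428F library 1 (13) or 2 (12) with vehicle. It was 30 without WT library 3 under PTH and 31 without WT library 1 with vehicle, 70 with DESeq2 and 145 with no filter on low counts.

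Among 27 Hippo pathway genes, 3 were higher and 5 were lower (29.6%, against 33.8% of all genes). Under 2 alternatives 1 was higher in place of 3. The YAP kinase gene *Lats2* was 136, 133 and 121 CPM in WT and 167, 198 and 173 CPM in Y428F libraries (log2 fold change 0.47, standard error 0.073, adjusted p = 1.22e-04), with every Y428F library above every WT library. Its relative *Lats1* was 57.3 ± 5.69 CPM in WT against 66.1 ± 4.80 CPM in Y428F cells and was not called (log2 fold change 0.21, adjusted p = 0.0428), and the libraries overlapped. Of the TEAD factors through which YAP binds DNA, *Tead1* and *Tead4* were higher, from 165 to 216 CPM and from 13.3 to 18.7 CPM, whereas *Tead2* and *Tead3* had log2 fold changes of 0.035 and -0.10 and were not called. The genes that were lower were *Yap1* itself and 4 genes for proteins of membranes and cell junctions. The FERM protein gene *Frmd6* was 206 ± 8.25 CPM in WT against 134 ± 10.2 CPM in Y428F cells (log2 fold change -0.61, adjusted p = 3.80e-06). The angiomotin genes *Amotl1* and *Amotl2*, whose products bind YAP, had log2 fold changes of -0.50 and -0.47, and the atypical cadherin gene *Dchs1* had -1.21 at a level of 1.98 CPM in WT cells. The core kinase and scaffold genes *Stk3*, *Stk4*, *Sav1*, *Mob1a* and *Mob1b* lay between -0.13 and 0.10 and none was called.

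Of 21 YAP target genes tested, 3 were higher and 6 were lower, with a median log2 fold change of -0.033. The share called was 42.9%, against 33.8% of all genes and 43.8% of those with a mean of 4 CPM or more. Among those called, *Lats2* and *Amotl2* are also in the Hippo list. Under 1 alternative 5 were higher in place of 3. *Ccn2*, which encodes the matricellular protein CTGF, was 23.3, 21.5 and 17.1 CPM in WT and 77.8, 86.96 and 68.97 CPM in Y428F libraries (log2 fold change 1.93, standard error 0.11, adjusted p = 1.01e-08), and the difference with vehicle was 1.87. *Ccn1*, which encodes the related protein CYR61, was 488, 483 and 395 CPM in WT and 463, 469 and 390.3 CPM in Y428F libraries, which overlapped (log2 fold change -0.040, adjusted p = 0.730). With vehicle, *Ccn1* was 217 ± 18.4 CPM in WT against 287 ± 3.04 CPM in Y428F cells (log2 fold change 0.41, adjusted p = 3.52e-05), and the difference between the 2 line differences was not past the limit (adjusted p = 0.136). *Ankrd1*, an ankyrin repeat cofactor, was 165 ± 19.2 CPM in WT against 202 ± 10.9 CPM in Y428F cells and fell just short of the limit of 0.3 (log2 fold change 0.29, adjusted p = 0.00697), and *Myc* was not called (log2 fold change 0.16, adjusted p = 0.126). *Nuak2*, an AMPK-related kinase gene, was higher (log2 fold change 0.83, adjusted p = 4.60e-06). *Ccdc80*, a matrix protein gene, was 407 ± 18.8 CPM in WT against 167 ± 9.77 CPM in Y428F cells, and *F3*, which encodes tissue factor, and the RNA-binding protein gene *Rbms3* were also lower, with log2 fold changes of -0.62 and -0.66. In RefSeq promoter windows from GRCm38.p6, which run from 250 bases before to 50 after each start, the TEAD word CATTCC was present on either strand for 7 of 14 target genes with a window (50.0%) and for 14.7% of 10773 tested genes.

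**Figure D2:**
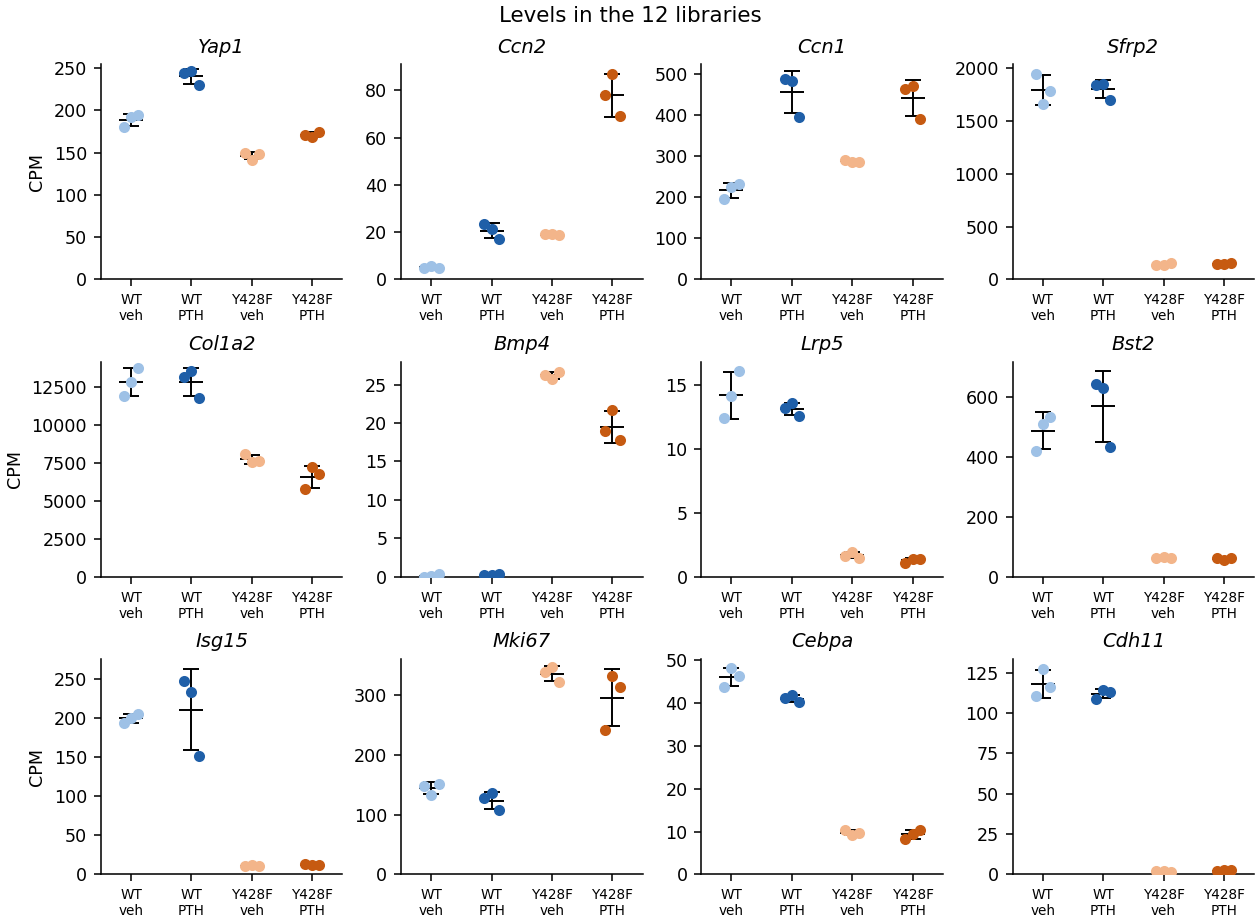
CPM of 12 genes in each of the 12 libraries (points), by line and treatment, with mean ± SD of 3 libraries as horizontal line and bars. *Ccn2*, *Bmp4* and *Mki67* were higher in Y428F cells with both treatments, *Sfrp2*, *Lrp5*, *Bst2*, *Isg15*, *Cebpa* and *Cdh11* were lower, and *Ccn1* under PTH overlapped between the lines.

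The list of PTH pathway genes covers the receptor, G proteins, cyclases, phosphodiesterases, phospholipases, PKA, salt-inducible kinases and CREB factors. Among the 34 tested, 12 were lower and 4 were higher (17.3% and 16.5% in the background), with a median log2 fold change of -0.19. *Pde4d*, a phosphodiesterase gene whose product degrades cAMP, was 30.9, 36.97 and 32.5 CPM in WT and 9.21, 10.8 and 10.6 CPM in Y428F libraries (log2 fold change -1.71, standard error 0.10, adjusted p = 1.17e-08). With vehicle its line difference was -0.96, and the difference between treatments did not pass the limits (log2 -0.74, adjusted p = 0.0381). Another member of its family, *Pde4b*, was higher, at 13.8 ± 0.387 CPM in WT against 23.1 ± 0.643 CPM in Y428F cells (log2 fold change 0.75, adjusted p = 6.53e-06). Among adenylyl cyclases, *Adcy6* was lower (234 against 152 CPM) and *Adcy7* was higher (12.7 against 26.8 CPM). *Gnas*, which encodes the stimulatory G protein subunit, had a log2 fold change of -0.33, and *Gna11*, of the G protein family that activates phospholipase C, had 0.41. The phospholipase gene *Plcb4* was lower (-0.85), as was *Sik1*, a salt-inducible kinase gene (-0.48).

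Of 22 genes of the immediate response to cAMP and PTH, 5 were higher and 5 were lower under PTH. The share called was 45.5%, against 33.8% of all genes and 43.8% of those with a mean of 4 CPM or more. The nuclear receptor gene *Nr4a1* was 27.1, 28.8 and 24.2 CPM in WT and 14.2, 14.6 and 12.7 CPM in Y428F libraries (log2 fold change -0.94, adjusted p = 2.31e-06), and *Egr1*, an immediate early transcription factor gene, was 14.3 ± 0.983 CPM in WT against 9.56 ± 0.377 CPM in Y428F cells (log2 fold change -0.57, adjusted p = 4.27e-04). Their line differences with vehicle were -1.21 and -1.25. *Fos* was at 1.49 and 1.00 CPM and was not called. *Ptgs2*, which encodes cyclooxygenase-2, was 59.7 ± 10.4 CPM in WT against 59.1 ± 4.82 CPM in Y428F cells and was not called (log2 fold change -0.0066, adjusted p = 0.963). *Id1* and *Id3* had the highest log2 fold changes of the list and are described next.

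The 22 genes whose line difference depended on PTH held 3 of the 25 tested genes of the BMP list (against 0.124% of all genes), *Id3*, *Id1* and *Atoh8*, all called higher in Y428F cells under PTH but by less than with vehicle. The lists were chosen with earlier results of these data known, and the 0.124% covers tested genes of every level. The share is therefore a description and not a test. *Id3* and *Id1* encode inhibitors of basic helix-loop-helix factors. *Id3* was 51.6, 49.03 and 52.6 CPM in WT and 108, 89.9 and 97.9 CPM in Y428F libraries under PTH (log2 fold change 0.95, adjusted p = 2.23e-07). With vehicle it was 3.79 CPM in WT against 75.7 CPM in Y428F cells, so the line difference was 4.33 there. *Id1* was 6.72, 7.57 and 6.81 CPM in WT and 50.7, 40.03 and 44.5 CPM in Y428F libraries under PTH (log2 fold change 2.69, adjusted p = 4.40e-10), against 4.34 with vehicle. *Atoh8*, a basic helix-loop-helix factor gene, was 36.3, 31.5 and 31.6 CPM in WT and 67.5, 64.6 and 62.1 CPM in Y428F libraries under PTH (log2 fold change 0.97, adjusted p = 1.91e-07), against 2.53 with vehicle. The line difference under PTH minus that with vehicle was -3.38 for *Id3*, -1.66 for *Id1* and -1.55 for *Atoh8* on the log2 scale.

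The same 22 genes held 7 of the 35 tested genes of the actin cytoskeleton and of its regulator SRF (against 0.124% of all genes), *Acta2*, *Actg1*, *Cnn1*, *Myl9*, *Palld*, *Pdlim5* and *Pdlim7*. As for the BMP list, the share is only a description, because the lists were chosen with earlier results of these data known. *Acta2*, which encodes smooth muscle α-actin, was 493, 486 and 481 CPM in WT and 299, 301 and 270.4 CPM in Y428F libraries under PTH, and every Y428F library was below every WT library (log2 fold change -0.74, standard error 0.060, adjusted p = 2.63e-07). With vehicle it was 107 ± 15.8 CPM in WT against 129 ± 7.49 CPM in Y428F cells, which is not a called difference (log2 fold change 0.28, adjusted p = 0.0104). *Cnn1*, which encodes calponin, was 39.9, 37.2 and 41.1 CPM in WT and 14.3, 12.3 and 13.7 CPM in Y428F libraries under PTH (log2 fold change -1.55, standard error 0.087, adjusted p = 8.56e-09), against -0.21 with vehicle (adjusted p = 0.210). *Myl9*, the gene of a myosin regulatory light chain, was 239.8, 228 and 246 CPM in WT and 80.3, 78.03 and 76.4 CPM in Y428F libraries under PTH (log2 fold change -1.60, adjusted p = 2.02e-10) and -1.05 on the log2 scale with vehicle. The actin-binding protein genes *Palld* and *Pdlim5* had log2 fold changes of -0.67 and -0.66 under PTH and of 0.10 and 0.10 with vehicle. *Actg1*, which encodes cytoplasmic γ-actin, was instead higher in Y428F cells with vehicle (0.58) and was not called under PTH (0.049). For each of these 7 genes the difference between treatments was negative, between -1.33 for *Cnn1* and -0.46 for *Pdlim7*.

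Over the whole actin and SRF list, 14 genes were lower and 5 were higher under PTH (54.3% called, against 33.8% of all genes), with a median log2 fold change of -0.16, whereas the median with vehicle was 0.12. Of the 19 called genes, 13 had the same sign with vehicle. *Zyx*, which encodes the focal adhesion protein zyxin, was 1887 ± 123 CPM in WT against 829 ± 58.7 CPM in Y428F cells (log2 fold change -1.18, adjusted p = 9.95e-09), and *Vcl*, which encodes vinculin, was lower as well (-0.82). *Srf* itself was 235 ± 12.1 CPM in WT against 182 ± 8.62 CPM in Y428F cells (log2 fold change -0.36, adjusted p = 2.70e-04), and its cofactor gene *Mrtfa* was higher (0.33). *Fhl1*, which encodes a LIM-only protein, was 66.3 ± 1.30 CPM in WT against 190.1 ± 6.92 CPM in Y428F cells (log2 fold change 1.53, adjusted p = 2.79e-10). *Actb*, *Tpm1* and *Flna* were not called, with log2 fold changes of -0.082, -0.18 and 0.047.

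**Figure D3:**
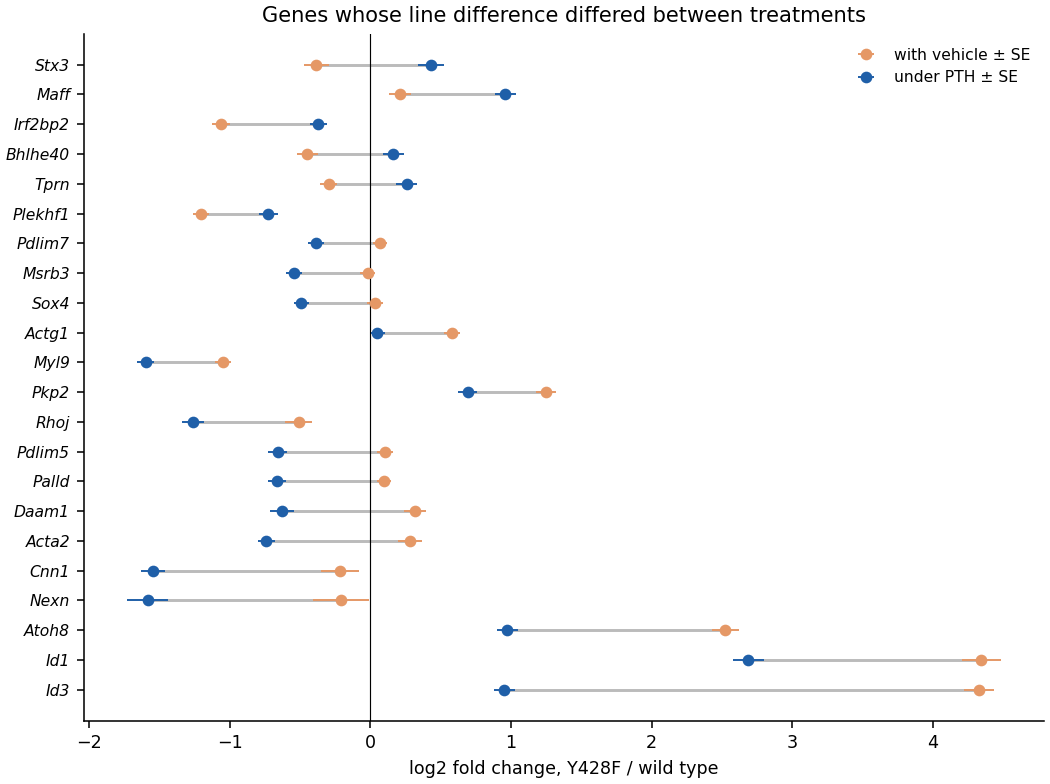
Line difference with vehicle (orange) and under PTH (blue), log2 fold change of Y428F over wild type ± SE, for the 22 genes whose line difference differed between the treatments. *Id1*, *Id3* and *Atoh8* were closer to 0 under PTH than with vehicle, and *Acta2*, *Cnn1*, *Nexn*, *Palld* and *Pdlim5* lay between -0.21 and 0.28 with vehicle and were lower in Y428F cells under PTH.

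Of 25 genes for BMP ligands, receptors, antagonists and targets, 9 were higher and 5 were lower (56.0% called, against 33.8% of all genes). *Bmp4* (chr14:46620250-46636745), which encodes an osteogenic ligand, was 0.236, 0.185 and 0.408 CPM in WT and 18.97, 21.7 and 17.7 CPM in Y428F libraries (log2 fold change 6.10, standard error 0.21, adjusted p = 1.19e-10), with a difference of 7.13 with vehicle. *Bmpr1b*, a type I receptor gene singled out after its values were seen, had 3, 1 and 3 counts in WT and 46, 59 and 52 counts in Y428F libraries. *Chrd*, which encodes the BMP antagonist chordin, was lower, from 6.52 to 1.17 CPM (log2 fold change -2.47, adjusted p = 1.08e-06). *Smad1*, which encodes a transducer of BMP signals, was lower (-0.45), and *Smad6* and *Smad7*, which encode inhibitory SMADs, had 0.18 and 0.73, of which the latter was called. *Id2*, a target gene, was 13.1 ± 1.03 CPM in WT against 27.8 ± 3.64 CPM in Y428F cells (log2 fold change 1.10, adjusted p = 2.05e-06).

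Of 19 genes of the TGF-β pathway, 4 were higher and 7 were lower (57.9% called, against 33.8% of all genes). The receptor gene *Tgfbr2* was 1035, 1115 and 1016 CPM in WT and 406, 449 and 416 CPM in Y428F libraries (log2 fold change -1.31, standard error 0.062, adjusted p = 1.66e-09). The coreceptor gene *Eng* and the ligand gene *Tgfb1* were lower too, with log2 fold changes of -0.85 and -0.65, and *Ltbp4*, which encodes a protein that holds the latent ligand in the matrix, fell from 42.8 to 13.9 CPM. *Smad3* was 179 ± 12.4 CPM in WT against 103 ± 7.01 CPM in Y428F cells (log2 fold change -0.79, adjusted p = 6.68e-07). The genes that were higher included the activin subunit gene *Inhba*, at 44.3 ± 4.89 CPM in WT against 72.7 ± 9.14 CPM in Y428F cells (log2 fold change 0.72, adjusted p = 3.09e-05), and the corepressor gene *Skil* (0.80).

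WNT ligand, receptor and target genes were lower and higher in similar numbers. Of the 5 secreted antagonists tested, 1 was called (20%, against 33.8% of all genes). That gene was *Sfrp2* (chr3:83673481-83681623), at 1841, 1854 and 1700.2 CPM in WT and 144, 146 and 154 CPM in Y428F libraries (log2 fold change -3.60, standard error 0.064, adjusted p = 1.79e-13). Of 9 ligand genes 3 were higher and 2 lower (55.6% called, against 33.8% of all genes). *Rspo2*, an R-spondin that strengthens WNT signals, was 71.2, 74.9 and 74.2 CPM in WT and 19.6, 19.9 and 19.8 CPM in Y428F libraries (log2 fold change -1.89, adjusted p = 1.48e-10), and *Wnt5a*, a ligand of noncanonical signaling, was lower as well (log2 fold change -0.64, adjusted p = 2.09e-05). *Wnt4* was higher, at 1.74 CPM in WT against 5.45 CPM in Y428F cells, and the others that were higher, *Wnt7a* and *Wnt10a*, had 0 counts in the WT libraries and 14, 9 and 5 and 12, 4 and 10 counts in Y428F libraries. Of 15 receptor genes 3 were higher and 4 lower (46.7% called). *Lrp5*, a coreceptor gene known for its part in bone mass, was 13.1, 13.5 and 12.6 CPM in WT and 1.11, 1.40 and 1.38 CPM in Y428F libraries (log2 fold change -3.32, standard error 0.15, adjusted p = 1.38e-09), whereas its relative *Lrp6* was not called (log2 fold change -0.12, adjusted p = 0.276). Among Frizzled genes *Fzd1* was higher (20.1 against 41.6 CPM) and *Fzd5* and *Fzd8* were lower (-1.34 and -1.60). Of 9 genes for β-catenin, its partners and targets, 2 were higher and 2 were lower. The share called was 44.4%, against 43.8% of genes with a mean of 4 CPM or more. The transcription factor genes *Lef1* and *Tcf7l1* were lower, from 19.1 to 2.46 CPM and from 91.9 to 26.7 CPM, and the target gene *Ccnd1* was higher, at 233 ± 19.5 CPM in WT against 442 ± 15.8 CPM in Y428F cells (log2 fold change 0.93, adjusted p = 8.38e-08). *Ctnnb1*, which encodes β-catenin, was not called (log2 fold change -0.19, adjusted p = 0.00880).

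Lineage genes differed on either side. Of 13 osteoblast genes, 4 were higher and 3 were lower (53.8% called, against 33.8% of all genes). *Runx2*, the master factor of the lineage, was 86.7 ± 2.42 CPM in WT against 78.1 ± 6.73 CPM in Y428F cells and was not called (log2 fold change -0.14, adjusted p = 0.109). *Atf4*, a transcription factor gene needed in mature osteoblasts, was 256, 252 and 230.1 CPM in WT and 465, 426 and 435 CPM in Y428F libraries (log2 fold change 0.85, adjusted p = 1.08e-07), and *Tnfrsf11b*, which encodes the decoy receptor osteoprotegerin, was higher as well, from 12.4 to 26.6 CPM. *Spp1*, which encodes osteopontin, was lower (log2 fold change -0.51, adjusted p = 1.51e-05). *Sp7*, *Bglap* and *Ibsp*, which mark mature osteoblasts, did not reach 10 counts in total and were not tested.

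Of 18 adipogenic genes, 2 were higher and 7 were lower (50.0% called, against 33.8% of all genes). Under 1 alternative 5 were higher in place of 2, and under 1 the median log2 fold change was 0.16 in place of -0.28. *Zfp423*, an early determinant of preadipocytes, was 12.1, 10.5 and 10.3 CPM in WT and 0.610, 0.618 and 0.220 CPM in Y428F libraries (log2 fold change -4.48, standard error 0.24, adjusted p = 5.24e-09). *Cebpa*, a factor that sustains the adipocyte program, was 41.1, 41.9 and 40.1 CPM in WT and 8.26, 9.43 and 10.3 CPM in Y428F libraries (log2 fold change -2.13, adjusted p = 6.81e-10), and *Zfp467*, a zinc finger gene linked to adipogenesis and to PTH, was 40.7, 41.2 and 42.3 CPM in WT and 8.43, 8.93 and 11.6 CPM in Y428F libraries (log2 fold change -2.09, adjusted p = 3.53e-09). For each of the 3 the libraries of the lines lay far apart. *Fabp4*, a fatty acid-binding protein gene, was lower too (-1.62). The genes that were higher were *Pparg*, the master factor of adipogenesis, at 45.3 ± 4.36 CPM in WT against 65.03 ± 2.71 CPM in Y428F cells (log2 fold change 0.53, adjusted p = 6.17e-05), and *Cebpb*, which acts early in it (log2 fold change 0.49, adjusted p = 1.14e-04).

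**Figure D4:**
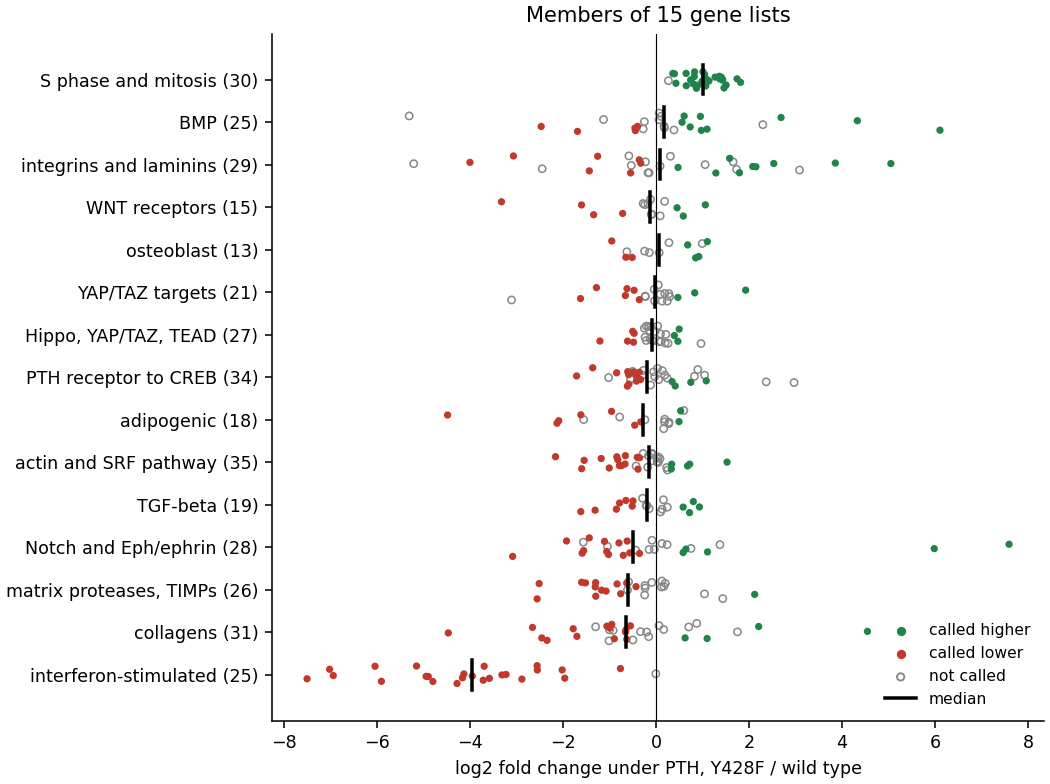
Log2 fold change under PTH (horizontal axis, Y428F over wild type) of the tested members of 15 gene lists, 1 point per gene and with the number tested in brackets, where filled points were called and the black bar is the median. The interferon list lies between -7.50 and 0 with a median of -3.95, the S phase and mitosis list lies above 0 with a median of 1.01, and most other lists straddle 0.

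Collagens and the enzymes that process matrix were lower in Y428F cells more often than they were higher. Of 31 collagen genes 14 were lower and 4 higher (58.1% called, against 33.8% of all genes), with a median log2 fold change of -0.65, and their summed level was 28257, 29370 and 25362 CPM in WT and 13998, 17736 and 16640 CPM in Y428F libraries. Without the first Y428F library, whose sum was the lowest, 15 were lower and 4 higher, with a median of -0.54. The type I collagen genes *Col1a2* and *Col1a1*, whose products form the main fibrils of bone, were lower. *Col1a2* was 13128, 13536 and 11781 CPM in WT and 5787, 7202 and 6802 CPM in Y428F libraries (log2 fold change -0.95, standard error 0.078, adjusted p = 3.02e-07), and *Col1a1* was 6977, 7343 and 6179 CPM in WT and 3617, 4854 and 4548 CPM in Y428F libraries (log2 fold change -0.65, adjusted p = 6.33e-05). *Col3a1*, *Col5a3* and *Col6a3* had larger differences, at -2.34, -2.66 and -1.78 on the log2 scale. The exceptions were *Col11a1*, of a minor fibrillar collagen, at 2.54, 2.09 and 2.80 CPM in WT and 54.7, 61.98 and 56.6 CPM in Y428F libraries (log2 fold change 4.54, standard error 0.11, adjusted p = 8.18e-12), and *Col7a1*, *Col8a1* and *Col12a1*, with 2.21, 0.62 and 1.10. The basement membrane genes *Col4a1* and *Col4a2* were not called (0.16 and 0.063).

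Of 26 protease and inhibitor genes, 13 were lower and 1 was higher (53.8% called, against 33.8% of all genes). *Adamts2*, which encodes the enzyme that trims procollagen, was 210.1, 209 and 183 CPM in WT and 30.7, 36.5 and 34.5 CPM in Y428F libraries (log2 fold change -2.56, standard error 0.080, adjusted p = 4.50e-11). *Mmp14*, a membrane-bound collagenase gene, was 827 ± 22.7 CPM in WT against 461 ± 33.3 CPM in Y428F cells (log2 fold change -0.84, adjusted p = 1.33e-07), and *Mmp9* and *Mmp19* were lower by more (-2.51 and -1.60). The gene that was higher, *Timp3*, encodes an inhibitor and was singled out after its values were seen, at 0.579 CPM in WT against 2.52 CPM in Y428F cells. *Thbs1* and *Fn1*, which encode thrombospondin-1 and fibronectin, were among the 5 genes with the largest falls in mean CPM. Predicted genes, pseudogenes and ribosomal protein genes were not ranked. *Thbs1* was 7562, 8005 and 6439 CPM in WT and 2964, 4102 and 3322 CPM in Y428F libraries (log2 fold change -1.08, adjusted p = 1.50e-06), and *Fn1* was 4447, 4857 and 4100.0 CPM in WT and 2135, 3262 and 2962 CPM in Y428F libraries (log2 fold change -0.67, adjusted p = 3.19e-04).

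Integrin and laminin subunits changed in opposite directions within 1 list, with 9 of 29 higher and 7 lower (55.2% called, against 33.8% of all genes). A subunit of a laminin of epithelial basement membranes and both subunits of its integrin receptor were among those that were higher. *Lamb3* was 7.31, 8.00 and 5.65 CPM in WT and 92.3, 108 and 101 CPM in Y428F libraries (log2 fold change 3.85, standard error 0.11, adjusted p = 1.66e-11). The receptor genes *Itga6* and *Itgb4*, singled out after their values were seen, had 1.79 and 1.58 on the log2 scale. Other integrin subunit genes, *Itgb8* and *Itgb7*, were higher by more than these, at 2.53 and 2.15. *Lama2*, of the laminin of muscle and stroma, was 75.3, 79.9 and 69.3 CPM in WT and 3.27, 5.22 and 5.45 CPM in Y428F libraries (log2 fold change -4.00, standard error 0.13, adjusted p = 6.25e-11), and *Itga7* and *Itga10*, which encode laminin- and collagen-binding subunits, were lower (-1.43 and -3.07). Among proteoglycan genes 2 of 16 were higher and 7 were lower (56.2% called, against 33.8% of all genes). *Bgn*, which encodes biglycan, was 2469 ± 211 CPM in WT against 1049 ± 98.2 CPM in Y428F cells (log2 fold change -1.23, adjusted p = 2.57e-08), and *Ogn* and *Sdc3*, which encode osteoglycin and a syndecan, were lower (-1.03 and -2.19).

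Cadherins and protocadherins, which mediate contact between cells, had 23 of 55 tested genes lower and 8 higher (56.4% called, against 33.8% of all genes), of which the higher ones were no more frequent than the 16.5% of all genes. *Cdh11*, the cadherin of mesenchymal cells and osteoblasts, was 109, 114 and 113 CPM in WT and 2.11, 2.53 and 2.42 CPM in Y428F libraries (log2 fold change -5.56, standard error 0.093, adjusted p = 1.23e-13), so the lowest WT library was far above the highest Y428F library. *Cdh18* and *Pcdhb9* had -3.87 and -3.70. *Cdh17*, known from intestinal epithelium, was higher, from 2.51 to 14.7 CPM (log2 fold change 2.56, adjusted p = 3.30e-08).

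Interferon-stimulated genes had the lowest median of the lists. Of 25 tested, 24 were lower in Y428F cells and none was higher (17.3% and 16.5% in the background), and all 24 were also called lower with vehicle. The median log2 fold change was -3.95 under PTH and -4.14 with vehicle. These genes are induced by a factor complex that holds STAT2 and IRF9 and binds an element called the ISRE in their promoters. *Stat2* was 121, 124 and 81.3 CPM in WT and 16.9, 20.8 and 17.5 CPM in Y428F libraries (log2 fold change -2.56, standard error 0.14, adjusted p = 8.09e-09), and *Irf9* was lower too (-2.02). *Isg15*, which encodes a ubiquitin-like modifier, was 247, 234 and 151 CPM in WT and 12.6, 11.8 and 11.5 CPM in Y428F libraries (log2 fold change -4.13, standard error 0.16, adjusted p = 3.33e-10), and *Bst2*, which encodes the antiviral membrane protein tetherin, was 643, 630.1 and 432 CPM in WT and 62.2, 56.3 and 63.1 CPM in Y428F libraries (log2 fold change -3.22, adjusted p = 3.37e-10). *Rsad2*, which encodes viperin, was 17.5, 18.6 and 8.39 CPM in WT and 0, 0.0561 and 0.165 CPM in Y428F libraries (log2 fold change -7.50, adjusted p = 5.45e-08). In each of these genes the third WT library was the lowest of its group and still far above the Y428F libraries. Without that library the list again had 24 genes lower and none higher, and the median was -4.14. *Irf1*, which is also induced by other signals, was 41.7, 43.4 and 43.03 CPM in WT and 41.3, 42.9 and 42.9 CPM in Y428F libraries, which overlapped, and was not called (log2 fold change -0.0043, adjusted p = 0.960). Several members belong to families of similar sequence (*Ifit*, *Oas*, *Mx*, *Gbp*), so counts of single members may include reads of a close relative.

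The ISRE word (GAAA, any 2 bases, then GAAA) was present on either strand in the promoter windows of 11 of the 19 members with a window (57.9%), and in those of 3.72% of 10773 tested genes and 3.44% of 32851 windows. A match describes the letters and is not evidence of binding. The stretches below are from RefSeq promoter windows and run 5′ to 3′ on the strand of the gene, with positions on GRCm39 and with the matches in capitals. They show the members of at least 5 CPM in WT cells with the largest falls whose matches had a single place in the genome and lay before the start of the gene in both RefSeq and GENCODE vM39, where each stretch ends at the latest.
Rsad2: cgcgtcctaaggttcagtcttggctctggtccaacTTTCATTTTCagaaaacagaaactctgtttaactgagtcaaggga
Oas3: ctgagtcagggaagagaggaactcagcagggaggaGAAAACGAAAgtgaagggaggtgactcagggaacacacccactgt
Isg15: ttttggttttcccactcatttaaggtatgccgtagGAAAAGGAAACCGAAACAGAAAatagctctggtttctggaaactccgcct
Ifit1: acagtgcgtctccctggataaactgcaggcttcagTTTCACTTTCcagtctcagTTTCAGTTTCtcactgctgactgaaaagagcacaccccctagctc
The *Rsad2* stretch is chr12:26506527-26506606 on the minus strand, and its match ended 110 bases before the GENCODE start. The *Oas3* stretch is chr5:120915755-120915834 on the minus strand, and its match ended 60 bases before that start. The *Isg15* stretch is chr4:156285304-156285388 on the minus strand, with overlapping matches of which the last ended 28 bases before the start. The *Ifit1* stretch is chr19:34618150-34618248 on the plus strand, with separate matches of which the last ended 57 bases before the start. Under PTH, *Oas3* was 36.1, 39.5 and 13.6 CPM in WT and 1.22, 1.18 and 0.771 CPM in Y428F libraries, and *Ifit1*, which encodes an RNA-binding antiviral protein, was 194, 199 and 123 CPM in WT and 12.1, 11.4 and 9.69 CPM in Y428F libraries.

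Genes of S phase and mitosis were higher in Y428F cells, 29 of 30 tested (16.5% in the background), and the remaining gene, *Mcm6*, had a log2 fold change of 0.27 that did not reach 0.3. The median was 1.01 under PTH and 0.88 with vehicle, where 27 of the 29 were also called. *Mki67*, which encodes the proliferation marker Ki-67, was 127, 135 and 107 CPM in WT and 242, 331 and 314 CPM in Y428F libraries (log2 fold change 1.27, standard error 0.11, adjusted p = 4.45e-07). *Rrm2*, which encodes a subunit of ribonucleotide reductase, was 52.4, 47.4 and 49.4 CPM in WT and 186, 172 and 166 CPM in Y428F libraries (log2 fold change 1.82, standard error 0.068, adjusted p = 1.94e-10), and *Top2a*, which encodes topoisomerase II, was 160.3 ± 11.9 CPM in WT against 412 ± 29.5 CPM in Y428F cells (log2 fold change 1.37, adjusted p = 4.10e-09). The mitotic kinase genes *Cdk1*, *Aurkb* and *Plk1* had 1.43, 1.74 and 1.36. The Y428F libraries did not overlap the WT libraries in any of these genes, and *Mki67* varied more between Y428F libraries than between WT libraries. The CCAAT word, known from promoters of mitotic genes, was in the windows of 20 of the 26 members with one (76.9%, against 43.6% of tested genes), and the E2F words TTTCCCGC or TTTGGCGC were in 6 of 26 (23.1%, against 3.27%). Among 17 genes of the p53 and GADD45 response, which restrain the cycle, 3 were higher and 4 were lower. The share called was 41.2%, against 33.8% of all genes and 43.8% of those with a mean of 4 CPM or more. *Trp53* and its regulator *Mdm2* were higher (0.52 and 0.51), and the other gene that was higher had a log2 fold change beyond 1. *Bbc3* and *Trp53inp1* were lower (-0.74 and -0.89), and the cell cycle inhibitor gene *Cdkn1a* was not called (log2 fold change -0.35, adjusted p = 0.155). Of the 7 called genes of this list, 3 were also called with vehicle.

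Secreted signals and their receptors differed in both directions. Of 29 FGF, EGF, PDGF and VEGF family genes 5 were higher and 10 were lower (51.7% called, against 33.8% of all genes). The receptor genes *Pdgfra* and *Pdgfrb*, which mark stromal cells, were lower, with *Pdgfra* at 62.1, 64.5 and 61.8 CPM in WT and 17.5, 21.3 and 18.3 CPM in Y428F libraries (log2 fold change -1.72, standard error 0.082, adjusted p = 1.81e-09) and *Pdgfrb* at -1.42 on the log2 scale. *Angpt1* and *Fgf7*, ligands that act on endothelium and epithelium, were lower (-2.57 and -2.18), and *Pdgfc* and *Fgf21* were higher (4.31 and 3.11). Of 17 chemokine and osteoclast-coupling genes 5 were higher and 6 lower (64.7% called, against 33.8% of all genes). *Ccl2*, which attracts monocytes, was 14.7, 16.3 and 15.1 CPM in WT and 49.8, 43.96 and 48.8 CPM in Y428F libraries (log2 fold change 1.64, standard error 0.083, adjusted p = 3.32e-09). The adhesion gene *Vcam1* was 139.6 ± 4.14 CPM in WT against 43.97 ± 1.41 CPM in Y428F cells (log2 fold change -1.66, adjusted p = 1.63e-10), and *Cxcl12*, the niche chemokine of marrow stroma, was lower (log2 fold change -0.44, adjusted p = 1.30e-05). *Csf1*, which supports osteoclast precursors, was not called (log2 fold change -0.038, adjusted p = 0.720), and *Tnfsf11*, which encodes RANKL, did not reach 10 counts.

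Of 14 IGF genes 3 were higher and 4 were lower (50.0% called, against 33.8% of all genes), with *Igf2r* at 404 ± 26.4 CPM in WT against 145 ± 21.6 CPM in Y428F cells (log2 fold change -1.48, adjusted p = 2.43e-08) and *Igf2bp1* at 40.4 ± 1.78 and 87.1 ± 5.42 CPM (log2 fold change 1.11, adjusted p = 2.63e-08). *Igf1* and its receptor gene *Igf1r* were not called. Of 28 Notch, ephrin and Eph genes 5 were higher and 13 were lower (64.3% called, against 33.8% of all genes). *Efnb2*, which encodes an ephrin found on osteoclasts and stroma, was 324, 336 and 297 CPM in WT and 101, 116 and 107 CPM in Y428F libraries (log2 fold change -1.55, standard error 0.068, adjusted p = 8.34e-10), *Notch3* was lower (-1.44) and *Epha2* was higher (0.64). Of 12 imprinted genes, which are expressed from the copy of 1 parent, 3 were higher and 6 were lower (75.0% called, against 33.8% of all genes). *Grb10*, which restrains insulin signaling, was 136, 139 and 116 CPM in WT and 19.1, 16.3 and 16.7 CPM in Y428F libraries (log2 fold change -2.90, standard error 0.089, adjusted p = 3.73e-11), and *Peg10* was higher (log2 fold change 1.42, adjusted p = 3.96e-09). Of 25 HOX genes, which record position along the body, 5 were higher and 4 were lower (36.0% called, against 33.8%), and the largest differences among those of at least 5 CPM were 1.12 for *Hoxc13* and -0.94 for *Hoxa3*. Of 12 Src, Abl and focal adhesion kinase genes 3 were higher and 2 were lower. The share called was 41.7%, against 33.8% of all genes and 43.8% of those with a mean of 4 CPM or more. Under 3 alternatives 1 to 4 were lower in place of 2. *Ptk2*, which encodes FAK, was 78.9, 84.9 and 76.6 CPM in WT and 125, 135 and 125 CPM in Y428F libraries (log2 fold change 0.69, adjusted p = 1.02e-06), and *Fgr*, singled out after its values were seen, had 23, 29 and 26 counts in WT libraries and 0 in each Y428F library.

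Some genes were detected in 1 line only. With 0 counts in each WT library and at least 10 in each Y428F library there were 31 genes, 29 of them protein-coding, and in the reverse case there were 14, of which 11 were protein-coding. *Bche*, which encodes butyrylcholinesterase, had 0 counts in WT and 655, 733 and 687 counts in Y428F libraries, at least 215-fold higher when 3 counts per library are taken as the floor. *Cysltr1*, a leukotriene receptor gene, was at least 71.9-fold higher on the same floor. *Ly6g*, *Magec2*, *Pnma5* and *Slc47a1* had 3 counts each over the WT libraries. For *Ly6g* the Y428F total was 946 counts, a ratio of 294.3 with an exact 95% interval of 100.4 to 1430.0 that covers counting error only. *Gpc1*, which encodes glypican-1, had 35, 0 and 0 counts in WT and 1426, 1523 and 1299 counts in Y428F libraries, so its WT mean rested on 1 library. *Trib2*, a pseudokinase gene named after its values were seen, had 113, 141 and 154 counts in WT and 0 in Y428F libraries, at least 48.6-fold lower. *Adam23*, a gene of the disintegrin family, had 292, 289 and 270 counts in WT and 0, 1 and 0 counts in Y428F libraries. Predicted genes, pseudogenes and ribosomal protein genes were left out of the ranking by mean CPM. In that ranking *Aqp1*, the water channel gene, had the third largest rise, from 307 to 1389.8 CPM (log2 fold change 2.19, standard error 0.059, adjusted p = 1.03e-11). The others with the largest rises in mean CPM were *Rn18s-rs5*, *Hsp90ab1*, *Ftl1* and *Eno1*, with log2 fold changes of 0.37, 0.49, 0.33 and 0.97. *Rn18s-rs5*, a ribosomal RNA gene, took 0.709%, 0.619% and 0.645% of the counts in WT and 0.939%, 0.780% and 0.945% in Y428F libraries, and it was not called when all 12 libraries were fitted together (adjusted p = 0.24).

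Markers of other cell types were near 0 apart from a few genes. Of 12 haematopoietic markers 6 were tested, and *Ly6g*, *Cd14*, *Ptprc* and *Lyz2* were higher in Y428F cells. The other 2, *Csf1r* and *Cd68*, were not called. *Csf1r* had 9, 5 and 7 counts in WT and fewer in total, 3, 4 and 6, in Y428F libraries. *Cd68* had 3, 4 and 17 counts in WT and 10, 4 and 15 in Y428F libraries. For these small lists of markers the shares of all genes are 16.5% higher and 17.3% lower. The sum over the 12 markers was 6.66, 8.12 and 7.05 CPM in WT and 38.2, 36.8 and 39.4 CPM in Y428F libraries, with *Cd14* taking the most CPM in WT and *Ly6g* in Y428F libraries. *Ptprc*, which encodes CD45, had 6, 6 and 14 counts in WT and 62, 64 and 61 counts in Y428F libraries, whereas *Adgre1*, *Cd3e*, *Kit* and *S100a8* had 0 counts in all 6. *Cdh5*, which encodes VE-cadherin, was higher (0.518 against 5.83 CPM), with *Pecam1* at 0 to 2 counts in each library. Only *Cdh5* was called among the 3 tested endothelial markers, and the other 2 had negative log2 fold changes. Of these, *Vwf* was 2.06, 2.40 and 1.34 CPM in WT and 1.11, 1.01 and 1.32 CPM in Y428F libraries. Of 4 tested epithelial markers the keratin genes *Krt8* and *Krt14* were higher, at 4.04 and 0.389 CPM in Y428F cells, with *Epcam* at 0 counts throughout. *Krt14* had 0 counts in each WT library and 2, 10 and 9 in Y428F libraries, and in 5 of the 6 fits without 1 library 1 of these markers was higher in place of 2. *Sox9* and *Col11a2*, of 3 tested cartilage markers, were lower (-1.28 and -1.70), *Des* was the 1 muscle marker tested and was higher (0.80), and none of 3 neural markers was called. The part of these genes in the other differences was not tested.

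The line difference also varied by chromosome. For the 10349 genes with a mean of 4 CPM or more that lie on the autosomes or the X chromosome, the median log2 fold change ran from -0.25 on chromosome 9, where 23.9% of 568 genes were higher, to 0.27 on chromosome 10, where 73.6% of 484 genes were higher. Chromosomes 11 and 15 had medians of 0.19 and 0.24, and chromosomes 3 and 18 had -0.17 and -0.21. The medians with vehicle were -0.23 on chromosome 9 and 0.26 on chromosome 10. *Yap1* lies on chromosome 9, and its log2 fold change of -0.48 was below that chromosome's median. *Ccn2* lies on chromosome 10 and its log2 fold change of 1.93 was above that median. These are descriptions across genes, which are not independent replicates.

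**Figure D5:**
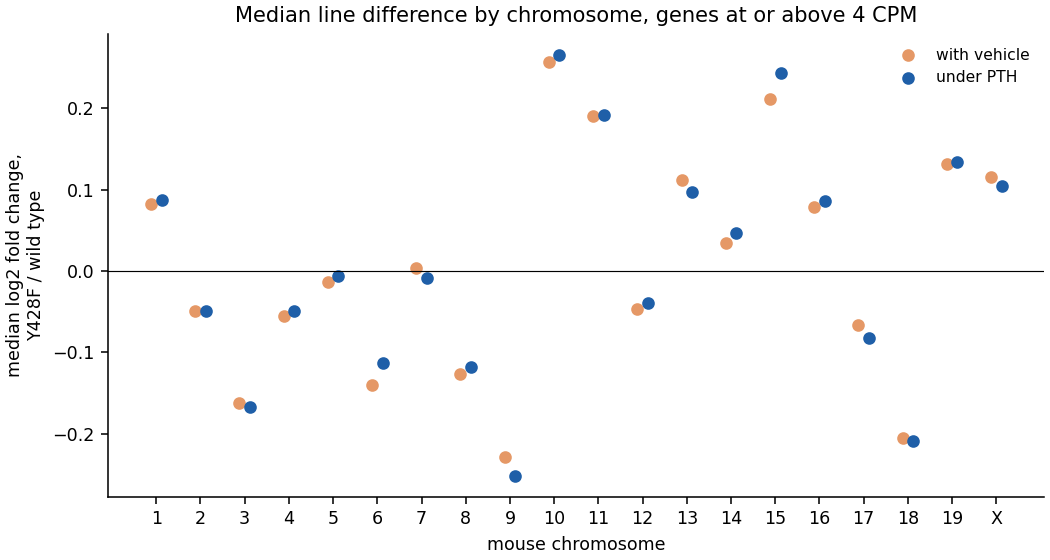
Median log2 fold change between the lines (vertical axis, Y428F over wild type) of genes of at least 4 CPM on each chromosome (horizontal axis), with vehicle (orange) and under PTH (blue). Chromosome 9 has the lowest median and chromosome 10 the highest with both treatments.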

How the data were processed

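RNA from W-20 cells was sequenced after poly(A) selection. Per the study's methods and the submitters' processing notes, reads were aligned with STAR 2.7.10b to the GRCm39 primary assembly with the GENCODE basic annotation. The deposited values are RSEM expected counts per gene, 1 column per library, unscaled and not pooled. Whether the counting used strand is not given in the sources used here, so overlapping antisense genes cannot be told apart.

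The expected counts were rounded to integers. Genes with at least 10 counts in total over the 6 libraries were tested (15913 of 56980; 34131 had 0 counts in all 6). edgeR 4.0.16 (R 4.3.3) was used with TMM scaling, the quasi-likelihood test and Benjamini-Hochberg adjustment. The vehicle comparison was fitted on its own 6 libraries, and the difference between the line differences on all 12. The standard error is the log2 fold change divided by the square root of its F statistic. CPM used TMM factors over the 12 libraries. Gene names and positions came from GENCODE vM39 (56236 identifiers matched, 744 did not) and promoter windows from RefSeq.

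Named were, among non-overlapping genes, the 8 largest log2 fold changes either way at a mean of 10 CPM or more, the 5 largest differences in mean CPM, up to 3 called genes per direction of each list with a mean of at least 5 CPM, 10 genes of the treatment difference and 10 genes fixed by name. The rankings by log2 fold change and by mean CPM took genes with an adjusted p below 0.01. They left out predicted genes, pseudogenes and ribosomal protein genes. Other members were named for their role, or because they were not called, after their values were seen, and not all of the genes that the rule gives are described. Some genes counted in the lists are not reported here by name. The comparison and the 35 lists were chosen with earlier results of these data known, and the tests were checked on simulated data. DESeq2 1.42.0, other scalings, filters and limits, a replicate block and each library left out were tried as alternatives.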

Additional observations from a re-analysis of the deposited data

Results flagged for a closer look

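The line difference under PTH minus that with vehicle passed the test of the difference itself (edgeR, all 12 libraries) for 22 genes, given here on the log2 scale. Of these, 16 were negative. The first 3 are BMP-responsive genes, with -3.38 for *Id3*, -1.66 for *Id1* and -1.55 for *Atoh8*. The genes of the actin cytoskeleton had -1.02 for *Acta2*, -1.33 for *Cnn1*, -0.55 for *Myl9*, -0.76 for *Palld*, -0.76 for *Pdlim5*, -0.46 for *Pdlim7* and -0.53 for *Actg1*, and *Nexn*, which encodes the actin-binding protein nexilin, had -1.37. The formin gene *Daam1* had -0.94, the GTPase gene *Rhoj* had -0.75, and *Pkp2*, which encodes a plakophilin of cell junctions, had -0.56. The remaining negative values were -0.52 for *Msrb3*, a methionine sulfoxide reductase gene, and -0.52 for *Sox4*, a transcription factor gene. The positive values were 0.81 for *Stx3*, 0.75 for *Maff*, 0.69 for *Irf2bp2*, 0.61 for *Bhlhe40*, 0.55 for *Tprn* and 0.48 for *Plekhf1*.

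Under 18 other settings, all with the same limits on p and fold, 11 of these genes were called in each. They were *Id3*, *Id1*, *Atoh8*, *Acta2*, *Cnn1*, *Myl9*, *Palld*, *Pdlim5*, *Daam1*, *Irf2bp2* and *Msrb3*. *Maff* was called in 17 and *Actg1* in 16 of the 18, *Sox4* in 12, *Pdlim7* in 11 and *Bhlhe40* in 10. *Stx3* was called in 9, *Tprn* in 8, *Plekhf1* in 7 and *Pkp2* in 6. The fewest were 5 of 18, for *Rhoj* and *Nexn*. *Nexn* was 16.6 CPM in WT against 5.53 CPM in Y428F cells under PTH and 3.80 and 3.27 CPM with vehicle. Why some of these genes were called in fewer settings was not tested.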

How the results depend on the processing

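Under PTH, 3901 genes were higher and 3854 lower at an adjusted p under 0.05, 1283 and 1468 at one under 0.0001 with no limit on the fold, and 805 and 829 at a log2 fold change beyond 1. With each library left out, 2204 to 2520 genes were higher and 2372 to 2700 lower. With vehicle, 4134 genes were higher and 4030 lower at an adjusted p under 0.05, 1595 were higher and 1702 lower at one under 0.0001, and 789 and 847 beyond a log2 fold change of 1. With each library left out there were 2440 to 2836 and 2485 to 2874. For the difference between treatments, DESeq2 called 70 genes and edgeR with no filter on low counts called 145, of which 22 each were shared with the 22 genes above, and the cause was not tested. There were 73 at an adjusted p under 0.05, 3 at one under 0.0001, 6 beyond a log2 difference of 1, and 12 to 31 with each library left out. Scaling by library totals gave 3106 genes higher and 2346 lower under PTH, so that 57.0% of the calls were higher in place of 48.9%, and it moved the median of all genes from 0.023 to 0.084.

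*Ccn1* and *Src*, neither of which was called, changed sign. *Ccn1* was 0.022 with library totals, 0.013 without WT replicate 1 and 0.034 without Y428F replicate 3, and *Src* was -0.0082 without WT replicate 3 and -0.029 without Y428F replicate 2. With each library left out, *Src* ran from -0.029 to 0.063 and *Ccn1* from -0.13 to 0.034. Each single gene was set against an adjusted p of 0.05 alone here. The other values of named genes kept their direction and their side of it in 2177 cases. The exceptions were *Rn18s-rs5* in the fit of all 12 libraries (0.37, adjusted p = 0.24), *Myc* with library totals (0.22, adjusted p = 0.035), and *Lats1* with DESeq2 and with any of 4 libraries left out (adjusted p of 0.053 to 0.19).

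Libraries with the same number did not deviate together in every pair (correlations of -0.087, 0.34 and 0.0029 over 10429 genes), so the numbers were not read as pairs, and of the WT libraries only the second correlated best with its own number. With the replicate number as a block, 2640 genes were higher and 2792 lower under PTH, 2633 and 2658 with vehicle, and 23 differed between treatments.

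The counts of genes called in the lists stayed within 1.5 times in 873 cases, were lower than that in 30 and higher in 3, and the lists' medians moved by less than the spread between libraries in 416 cases and by more in 37. The chromosomes' medians did so in 153 and 27 cases. Counts of genes called lower moved in the Src kinase and HOX lists. Counts called higher moved in the Hippo, YAP target, WNT ligand, WNT target, adipogenic, protease, proteoglycan, growth factor, Notch, HOX and cadherin lists. They also moved in the stromal, haematopoietic, endothelial and epithelial marker lists.

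For genes with few counts the precision was low, as for *Pth1r* (0.82, standard error 0.76, adjusted p = 0.398). All tests compare 2 lines, and the expected counts divide reads between similar genes by estimate.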
